A study of Mus musculus with 26 samples.

Results

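The cytosolic ribosomal protein genes encode the proteins of the ribosome outside mitochondria. Members were all genes whose symbol in the normalized tables is Rpl or Rps followed by a number, with an optional a (or x after Rps), plus Rplp0, Rplp1, Rplp2 and Rpsa. Processed pseudogenes, whose symbols carry -ps, and the paralogs ending in l or l1 were left out. The rule found 76 genes, 46 of the large subunit and 30 of the small subunit, among 15629 named genes of the MC38 table and 15300 of the T cell table. All 76 members passed the filter on low counts in both tables.

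Each ribosome holds a copy of nearly every one of these proteins, so their messages make up a large part of the mRNA of growing cells. Many of these messages start with a C followed by a run of pyrimidines, the 5' terminal oligopyrimidine (TOP) tract, through which mTORC1 and LARP1 govern their translation and stability. PRMT5, a methyltransferase that places symmetric dimethyl marks on arginine, modifies splicing proteins, histones and also ribosomal proteins such as Rps10.

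Poly(A) RNA was sequenced from MC38/gp100 cells, a mouse colon adenocarcinoma line, in a wild-type (WT) and an Mtap knockout (KO) version, and from pmel-1 T cells. Mtap encodes the enzyme that clears methylthioadenosine (MTA), a metabolite that binds PRMT5, and the T cells are of the pmel-1 transgenic mouse, whose T cell receptor is directed against gp100. Cells of each kind received DMSO, 0.5 uM GSK3326595, a PRMT5 inhibitor, or 0.5 uM MRTX1719, which inhibits the complex of PRMT5 and MTA. Treatment lasted 5 days in MC38 cells and 3 days in T cells, which are labelled wild-type and were kept in IL-2. There were 3 libraries per group and 26 in all, as wild-type cells with MRTX1719 had 2 libraries (replicates 1 and 3). The labels do not say whether the KO line is a clone or a pool, nor the age of the mice or whether replicates were separate cultures or animals. All p-values therefore speak to the spread of these libraries alone, part of which may be technical. In replicates 2 and 3 the treatment field alters the last digit of GSK3326595. The titles keep it, and the group was read as 1 compound.

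MC38 libraries held between 19302768 and 27786226 gene counts, and T cell libraries between 13813406 and 20772699. Mtap RNA was at 393 ± 4.61 CPM (counts scaled to a common library size) in wild-type cells with DMSO and at 264, 274 and 276 CPM in the KO libraries with DMSO, so whole-gene counts were lower in KO cells but not lost. Of 8 markers of colon epithelium, 1 reached 1 CPM in wild-type cells with DMSO, and Epcam and Cdx2 were at 0 there. The summed level of these 8 markers was 22.3 to 24.9 CPM with DMSO and 39.1 to 40.8 CPM with GSK3326595 in wild-type cells. In KO cells it was 14.6 to 15.9 CPM with DMSO, 59.9 to 62.6 CPM with GSK3326595 and 59.3 to 60.9 CPM with MRTX1719. In T cells all 7 T cell markers reached 1 CPM, with a summed level of 2893 to 2912 CPM with DMSO, 4066 to 4124 CPM with GSK3326595 and 3221 to 3289 CPM with MRTX1719. There 8 markers of B, CD4, myeloid and NK cells summed to between 0.739 and 1.84 CPM over all 9 libraries, with Lyz2, Ms4a1 and Ncr1 at 0. The 8 colon markers summed to 4.07 to 4.61 CPM in T cells with DMSO, 7.04 to 8.26 CPM with GSK3326595 and 6.17 to 7.95 CPM with MRTX1719, with Krt19 and Krt20 at 0. Among them Epcam rose with GSK3326595 (1.57 ± 0.356) and with MRTX1719 (1.77 ± 0.352), log2 changes from 0.370, 0.426 and 0.909 CPM to levels of at most 2.25 CPM. The part of these marker shifts in the results was not tested. In such bulk samples, fewer cells of a type and less RNA per cell cannot be told apart.

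The sequences around annotated starts show which members carry the C and pyrimidine run that defines a TOP message. RefSeq promoter windows (GRCm38.p6) were matched for 56 of the 76 members, and in 13 of these 56 (23.2%) the annotated first base was a C followed by at least 4 pyrimidines. The share over 27025 genes with a window was 3.01%. In the 30-base windows below, 15 bases lie before the annotated start and 15 from it onward, and capitals mark the run that begins at the start. Rps6 and Rps18 of the small subunit and Rpl35 and Rpl15 of the large subunit are shown because they carry long runs, and Rplp0, Rpl26 and Rpsa because their expression stands at the ends of the results and no such run begins at their annotated start. Annotated starts can lie some bases away from the start used in a cell, so the absence of a run says only that these letters are not at this base.
Rps6: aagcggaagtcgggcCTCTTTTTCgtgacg
Rps18: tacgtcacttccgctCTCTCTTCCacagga
Rpl35: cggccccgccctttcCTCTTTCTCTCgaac
Rpl15: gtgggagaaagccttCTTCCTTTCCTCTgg
Rplp0: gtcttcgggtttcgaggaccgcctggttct
Rpl26: ctcgcggcaacttacagaaccggaagtcgc
Rpsa: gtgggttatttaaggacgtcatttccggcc

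On GRCm38.p6 these windows lie at chr4:86857353-86857382 (minus strand) for Rps6, chr17:33955651-33955680 (minus) for Rps18, chr2:39005117-39005146 (minus) for Rpl35 and chr14:18270972-18271001 (minus) for Rpl15. Those of Rplp0, Rpl26 and Rpsa lie on the plus strand at chr5:115559452-115559481, chr11:68901551-68901580 and chr9:120127751-120127780. A C-led run of at least 8 pyrimidines anywhere within 15 bases of the start was present in 26 of the 56 members (46.4%), against 13.1% of all genes. Over the whole window, 250 bases before to 50 after the start and on both strands, the ETS core GGAAG was present in 91.1% of members and 73.9% of all genes. The YY1 core GCCAT was present in 55.4% and 44.2%, the SP1 core GGGCGG in 60.7% and 38.2%, and the E-box CACGTG in 10.7% and 8.09%. These matches are descriptions of letters and not of bound sites.

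Together the 76 members took 7.57% ± 0.0565 (SD, n = 3) of the gene counts of wild-type MC38 cells with DMSO and 7.29% ± 0.0640 (SD, n = 3) of those of KO cells with DMSO. In T cells with DMSO they took 14.5% ± 0.190 (SD, n = 3). The share in wild-type cells was 8.41% ± 0.0846 (SD, n = 3) with GSK3326595 and 7.42% ± 0.0162 (SD, n = 2) with MRTX1719. In KO cells it was 6.60% ± 0.0978 (SD, n = 3) with GSK3326595 and 5.96% ± 0.0673 (SD, n = 3) with MRTX1719. In T cells it was 15.8% ± 0.215 (SD, n = 3) with GSK3326595 and 16.7% ± 0.419 (SD, n = 3) with MRTX1719. The DMSO and inhibitor libraries did not overlap in any of these comparisons, and the share was above DMSO with GSK3326595 in wild-type MC38 and T cells and below DMSO with both inhibitors in KO cells. With 3 libraries against 3 an exact permutation test cannot go below p = 0.10, so no p is given for these shares.

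**Figure D1:**
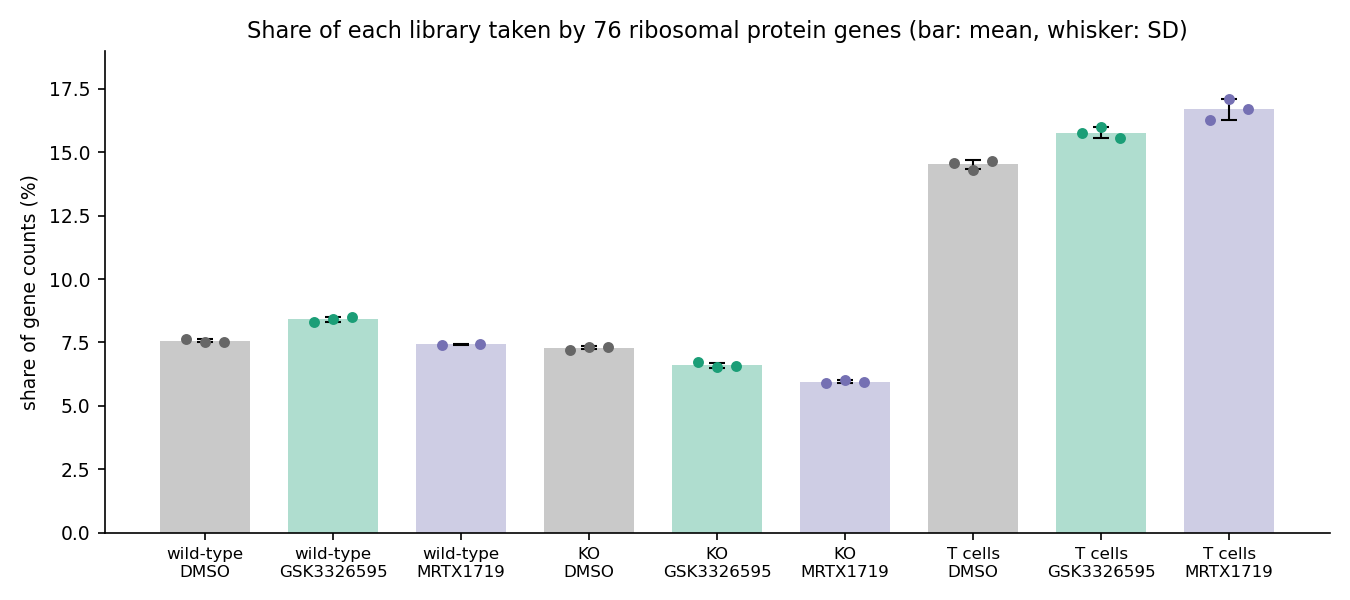
Share of each library's gene counts (%) taken by the 76 members, by cell kind and treatment, with points for libraries, bars for group means and whiskers for SD. T cell libraries lie above all MC38 libraries, which were counted in a separate table, and the lowest MC38 values are those of KO cells with MRTX1719 (mean 5.96%).

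Levels of single members spanned a wide range. Counted per kilobase of transcript in wild-type MC38 cells with DMSO, the median member stood at 929.7 CPM per kb and the highest, Rplp1, at 3268 CPM per kb. Rpl24, Rps10 and Rpl13a stood far below the others, at 0.687, 2.23 and 7.95 CPM per kb, while the next lowest was Rps15a at 131.6 CPM per kb. These 3 are the members whose transcript, in the GRCm38 annotation, shares more than 50% of its bases with exons of another gene on the same strand: 71.5% for Rpl24 with Gm28037, 53.6% for Rps10 with RPS10-NUDT3 and 59.3% for Rpl13a with Gm45713. Those 3 overlapping genes are listed with 0 counts in both tables. The part of the overlap in the low counts was not tested, and the GRCm38 annotation is not that of the deposited counts. The 3 members stay in every count below.

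**Figure D2:**
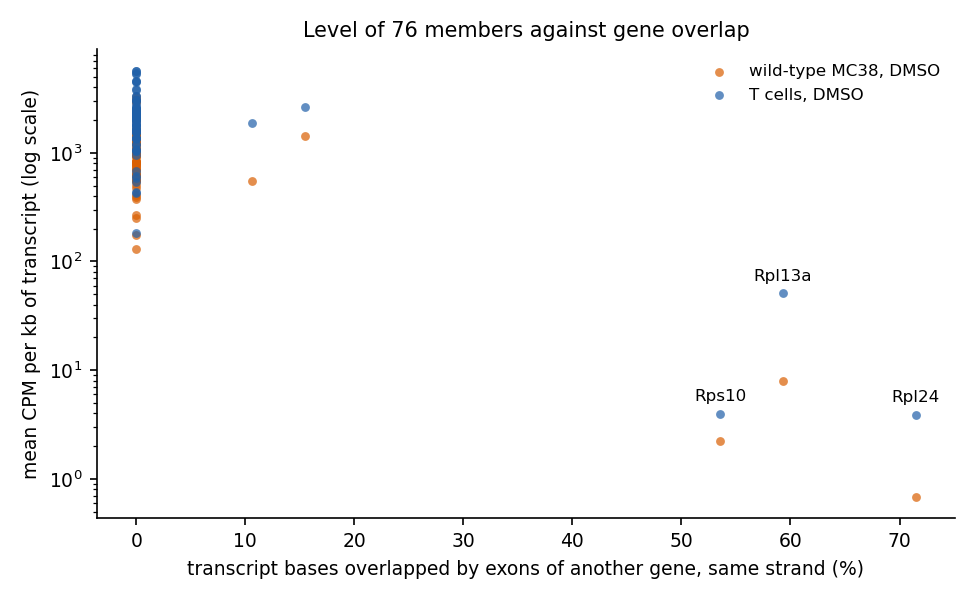
Mean CPM per kb of transcript (log axis) of each of the 76 members against the share of its transcript (%) overlapped by same-strand exons of another gene, in wild-type MC38 cells (orange) and T cells (blue) with DMSO. The 3 members past 50%, Rpl24, Rps10 and Rpl13a, lie below all other members in both kinds of cell.

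Tests below are edgeR quasi-likelihood tests with Benjamini-Hochberg adjusted p over all genes tested (14835 for MC38, 13753 for T cells), and a change is called at an adjusted p under 0.05. Fold changes are on the log2 scale with a standard error, and levels are CPM on scaled library sizes. Members named beyond those listed by role are those at the ends of each comparison, and those named as exceptions in a small count were picked after their values were seen.

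Under DMSO, single members differed between the KO and wild-type lines in both directions, with little shift of the whole group. Of 76 members, 38 were higher and 29 lower in KO cells, against 36.2% and 37% of all genes tested. The median of the members was 0.06 and that of all genes 0.01. Rplp0, the base of the ribosomal stalk that recruits elongation factors, was at 4267, 4286 and 4202 CPM in wild-type cells and at 2841, 2902 and 2883 CPM in KO cells. These do not overlap, and the log2 difference was -0.56 ± 0.0163 (adjusted p = 8.32e-68). Its partner Rplp1 was lower too (-0.42), while Rplp2 was slightly higher (0.06). Rpl12, which binds rRNA at the foot of the stalk, was lower by a similar amount, at 2024, 2013 and 2003 CPM in wild-type cells and 1225, 1308 and 1283 CPM in KO cells (-0.66 ± 0.0185, adjusted p = 6.82e-62).

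Levels of members of the mRNA channel and of other roles also differed between the lines, in both directions. Rps2, at the mRNA entry site, was at 2747, 2653 and 2641 CPM in wild-type cells and at 1654, 1723 and 1708 CPM in KO cells (-0.66 ± 0.0246, adjusted p = 1.09e-18). At the same site Rps10, which has few counts, was lower (-1.18 ± 0.249), and Rps3 (0.03) was not called. Of the 3 members near the mRNA exit, Rpsa was lower (-0.36), and Rps28 (0.64) and Rps26 (0.05) were higher. Rps6, the substrate of S6 kinase, was higher in KO cells (0.35), as was Rps9 (0.48). Of the pair that forms the 5S ribonucleoprotein particle and can bind Mdm2, Rpl5 was lower (-0.35) and Rpl11 higher (0.18). The KO line's clonal state is not given, so differences between lines and effects of the knockout cannot be told apart.

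GSK3326595 in wild-type MC38 cells went with higher levels of most members. Of 76, 62 were higher and 2 lower, against 20.1% and 21.1% of all genes tested, with a member median of 0.17 and an all-gene median of 0.00. Rps6 was at 1065, 1040 and 1049 CPM with DMSO and at 1387, 1431 and 1414 CPM with GSK3326595. All treated libraries lay above all controls, and the rise was 0.42 ± 0.0180 (adjusted p = 4.45e-47). Rpl26, a large-subunit protein that can bind p53 mRNA, stood at 505, 518 and 505 CPM and at 703, 726 and 751 CPM (0.51 ± 0.0217, adjusted p = 2.40e-35). Rpl19 rose to a like extent (0.51). Rpl22, which in lymphocytes also has roles outside the ribosome, rose by 0.36 ± 0.0202, from 528, 513 and 501 CPM to 650, 663 and 667 CPM. Rpl13a, which rests on low counts, had a change of 0.62 ± 0.0802.

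The ribosomal stalk did not share in that rise. Rplp0 was at 4096, 4129 and 4172 CPM with GSK3326595, below every control, and the difference was small (-0.04 ± 0.0162, adjusted p = 0.0318). It was lost when any of 4 of the 6 libraries was left out. The values of Rplp1 and Rplp2 were 0.01 and -0.03 and did not pass the test. Rpl37a, a zinc-finger protein of the large subunit, was the other member called lower (-0.11 ± 0.0365, adjusted p = 0.0238), which likewise did not hold without single libraries. Rpl5 of the 5S particle rose by 0.25 ± 0.0180, whereas Rpl11 was at 0.04 and not past the threshold. At the exit tunnel, through which the new chain leaves, Rpl4, Rpl17 and Rpl39 all rose (0.29 for Rpl4, 0.30 for Rpl39).

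In KO cells the same compound at the same dose and time went with lower levels of most members. GSK3326595 left 60 members lower and 1 higher, against 25.1% and 27.7% of all genes, with a median of -0.11. Rps6 was at 1314, 1364 and 1354 CPM with DMSO and at 1234, 1259 and 1252 CPM with GSK3326595, without overlap (-0.11 ± 0.0180, adjusted p = 1.15e-07). Rpl10, which joins the large subunit late near the peptidyl transferase center, fell by 0.24 on the log2 scale (adjusted p = 6.54e-19). The stalk members Rplp0, Rplp1 and Rplp2 were all lower (-0.26, -0.11 and -0.09), and the call for Rplp1 was lost without single libraries. Rps2 was the member called higher, from 1654, 1723 and 1708 CPM to 2001, 1836 and 1855 CPM (0.16 ± 0.0246, adjusted p = 3.62e-06).

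The difference between the lines in the response to GSK3326595 was itself tested. It passed for 70 of 76 members, against 42.2% of all genes tested, and 69 responded lower in KO cells and 1, Rps2, higher, against 20.2% and 22% of all genes. The median difference was -0.30. For Rps6 it was -0.53 ± 0.0255 (adjusted p = 1.54e-41) and for Rpl26 -0.63 ± 0.0306 (adjusted p = 5.24e-31). In 50 members the level was higher with the compound in wild-type cells and lower in KO cells, 2 comparisons with no library in common. Of the 76, 62 were higher in wild-type cells and 60 lower in KO cells, so most had to show both calls. The share of all genes with this pattern is not given here. Across the 76 members, as a description over genes that share libraries, Pearson's r between the responses of the lines was -0.13, and 0.07 over the 73 without the 3 that overlap other genes.

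**Figure D3:**
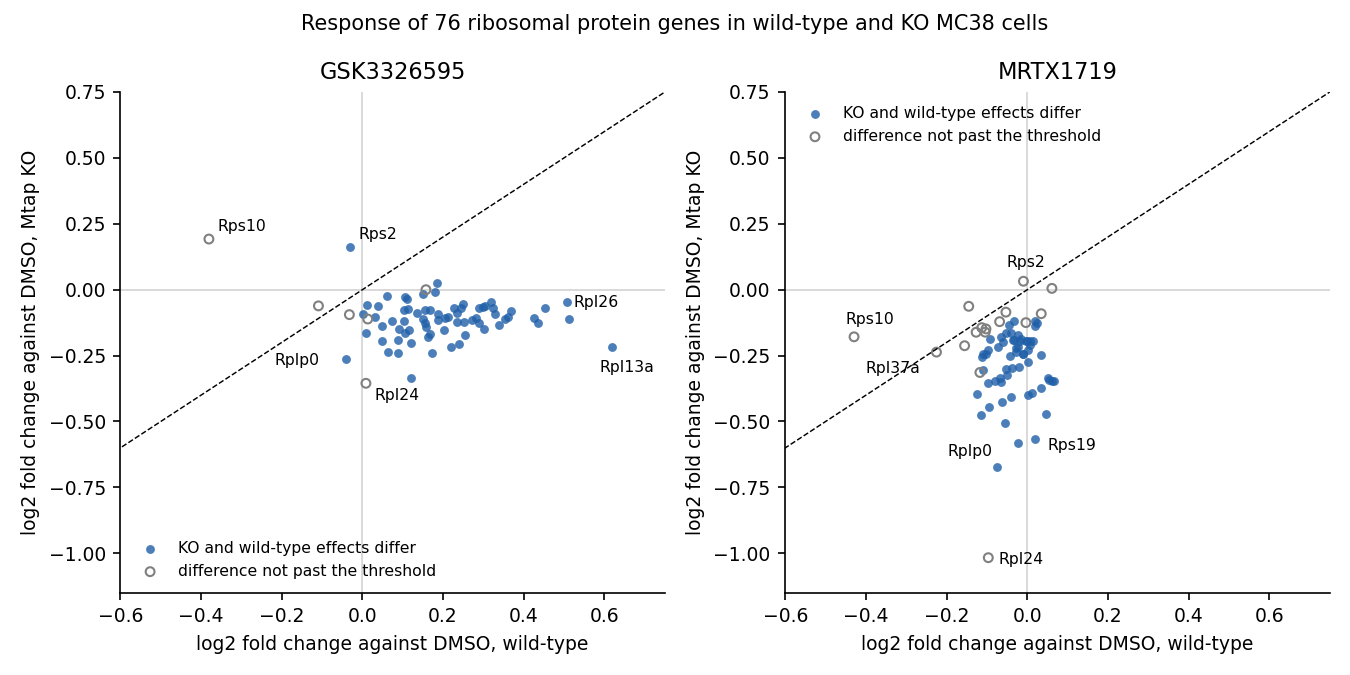
Log2 fold change against DMSO of each of the 76 members in wild-type (x axis) and KO (y axis) MC38 cells, for GSK3326595 (left) and MRTX1719 (right), with the line of equal response dashed. Filled points passed the test of the difference between lines (70 and 60 members). With GSK3326595 most lie to the right of 0 and below it, and with MRTX1719 most lie near 0 on the x axis and below 0 on the y axis.

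MRTX1719 in wild-type cells changed fewer members than GSK3326595 did, though a larger share than over all genes, and mostly to lower levels. Of 76, 1 (Rps9, 0.07, a call lost without single libraries) was higher and 18 lower, 19 in all, against 3.62%, 3.91% and 7.53% of all genes, with a median of -0.04. Rps6 stood at 1063 and 1059 CPM, within the controls' range of 1040 to 1065 CPM (0.01 ± 0.0203, adjusted p = 0.786). The largest fall past the threshold was that of Rpl37a, from 344, 338 and 335 CPM to 295 and 285 CPM (-0.23 ± 0.0411, adjusted p = 0.00211). Rpl11 was at 659, 639 and 646 CPM with DMSO and at 598 and 590 CPM with MRTX1719 (-0.13 ± 0.0225, adjusted p = 1.39e-05). With 2 treated libraries the count moved with single ones: 19 members changed with all libraries, 8 without MRTX1719 replicate 1 and 12 without DMSO replicate 1. Without replicate 1 the treated arm is 1 library, assumed to vary as much as those of the other groups. The split was 3 higher and 16 lower when libraries were scaled by their totals alone.

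In KO cells MRTX1719 lowered nearly all members. Of 76, 72 were lower and 0 higher by edgeR, against 33.6% and 37% of all genes, with a median of -0.23 against 0.02 for all genes. At an unadjusted p under 0.05 edgeR found 0 higher, as did DESeq2 at its adjusted threshold. Rplp0 was at 2841, 2902 and 2883 CPM with DMSO and at 1917, 1948 and 1898 CPM with MRTX1719, a clear gap (-0.58 ± 0.0164, adjusted p = 1.82e-68). Rps19, whose loss of a copy causes Diamond-Blackfan anemia in humans, was at 405, 447 and 439 CPM with DMSO and at 286, 295 and 291 CPM with MRTX1719 (-0.57 ± 0.0232, adjusted p = 1.50e-41). Rps24, Rps7 and Rpl35a, also among the genes mutated in that disease, were lower too, while Rps10 and Rpl27, which are among them as well, were not called. Rplp1 and Rplp2 fell by 0.30 and 0.24 on the log2 scale, and Rpl5 and Rpl11 by 0.13 and 0.16. At the exit tunnel Rpl4 fell by 0.21 and Rpl39 by 0.19, and at the mRNA exit Rpsa (-0.22), Rps26 (-0.43) and Rps28 all fell.

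The 4 members not called lower were Rpl8, Rpl27, Rps2 and Rps10. Their values were 0.0050 for Rpl8, -0.06 for Rpl27, 0.03 for Rps2 and -0.18 for Rps10, which has few counts. Rps2 stood at 1728, 1762 and 1710 CPM with MRTX1719, overlapping its DMSO libraries. Rpl24 had the largest fall (-1.02 ± 0.433, adjusted p = 0.0300), from 0.51, 0.61 and 0.54 CPM to 0.32, 0.29 and 0.19 CPM. That call rests on few reads and was lost under DESeq2 (adjusted p = 0.101).

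The response to MRTX1719 differed between lines for 60 of 76 members, against 58.2% of all genes tested, with 60 lower and 0 higher in KO cells by edgeR, against 27.9% and 30.3% of all genes. The count higher was 0 also at an unadjusted p under 0.05 and by DESeq2. The median difference was -0.19. It was -0.59 ± 0.0340 for Rps19 (adjusted p = 1.37e-29) and -0.56 ± 0.0243 for Rplp0 (adjusted p = 1.17e-46). Rplp0 was at 4170 and 4204 CPM in wild-type cells with MRTX1719, beside 4202 to 4286 CPM with DMSO (-0.02, not past the threshold). For Rpl11, which was lower in both lines, the difference was -0.03 and did not pass.

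The inhibitors were set side by side at the same dose and time within each line. In wild-type cells 67 members were lower with MRTX1719 than with GSK3326595 and 0 higher by edgeR, against 14.6% and 15.4% of all genes, with a median of -0.22. Rpl26 (-0.50) and Rpl36a (-0.49) were among those farthest apart, and Rplp0 (0.02), Rplp2 (0.02) and Rps2 (0.02) did not pass. In KO cells 68 were lower and 0 higher, against 24.9% and 28.3%, with a median of -0.13. Rps19 (-0.33) and Rplp0 (-0.32) were among those farthest apart there. In both lines the count higher was 0 also at an unadjusted p under 0.05 and by DESeq2. These comparisons reuse the inhibitor libraries already described.

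**Figure D4:**
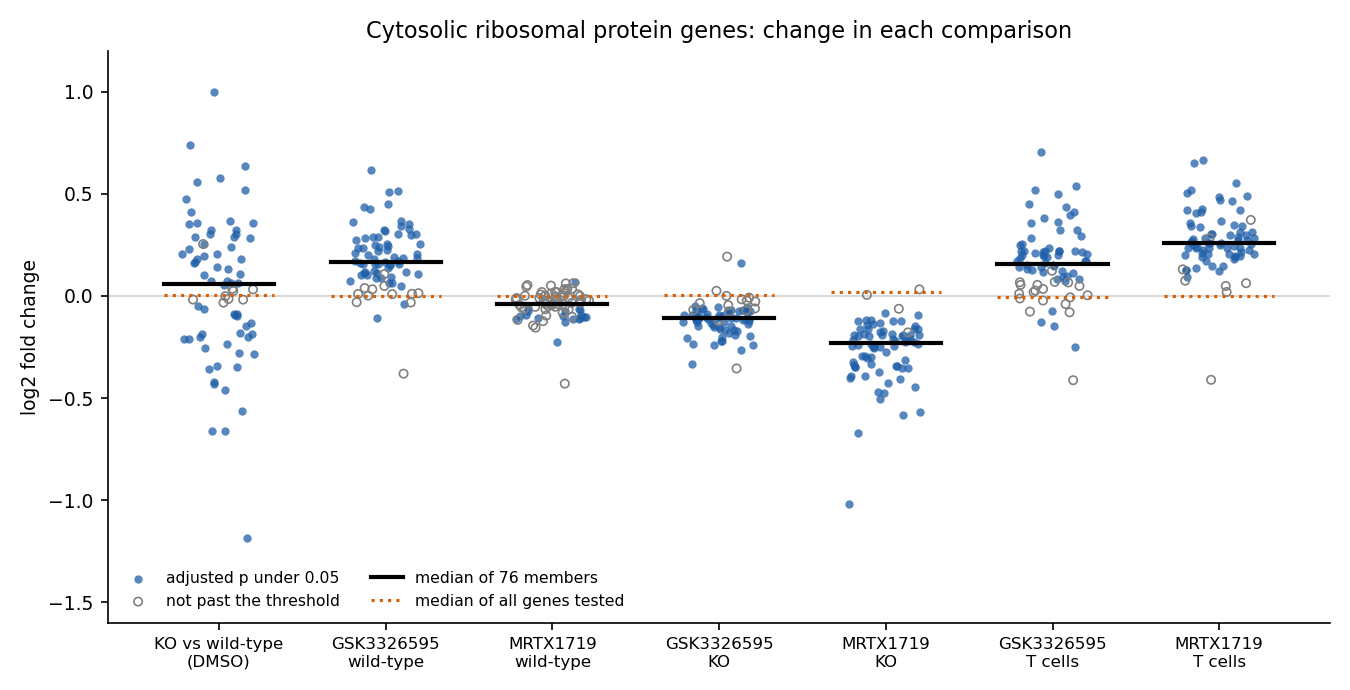
Log2 fold change of each of the 76 members in 7 comparisons, filled where the adjusted p was under 0.05 and open elsewhere. Thick black lines give the member median (0.17 for GSK3326595 in wild-type cells, -0.23 for MRTX1719 in KO cells, 0.26 for MRTX1719 in T cells) and dotted orange lines the median of all genes tested, which stays near 0.

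In T cells both inhibitors went with higher levels of most members. GSK3326595 left 53 higher and 4 lower, against 26.6% and 26.2% of all genes, with a median of 0.16. Rpl30, of the large subunit, was at 557, 548 and 535 CPM with DMSO and at 791, 779 and 777 CPM with GSK3326595, without overlap (0.52 ± 0.0332, adjusted p = 2.56e-25). Rpl7 rose by a like amount (0.54). Rps6 rose from 2170, 2169 and 2344 CPM to 2624, 2615 and 2541 CPM (0.22). Among the members called lower were Rpsa, Rpl36 and Rps12. Rpsa was at 7564, 7389 and 7207 CPM with DMSO and at 6273, 6327 and 6056 CPM with GSK3326595 (-0.25 ± 0.0290, adjusted p = 3.20e-12).

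MRTX1719 in T cells left 68 members higher and 0 lower by edgeR, against 18.9% and 18.5% of all genes, with a median of 0.26. The count lower was 0 also at an unadjusted p under 0.05 and by DESeq2. Rpl30 rose the most (0.66 ± 0.0333, adjusted p = 2.08e-31), from 557, 548 and 535 CPM to 830, 897 and 872 CPM. Rpl41, which encodes a very short basic peptide, rose from 1900, 1896 and 2006 CPM to 2866, 3159 and 3072 CPM (0.65 ± 0.0390, adjusted p = 2.75e-14). The stalk members rose as a set of 3, with Rplp0 at 3304, 3212 and 3335 CPM with DMSO and 3888, 4018 and 3986 CPM with MRTX1719 (0.27 ± 0.0296), Rplp1 at 0.31 and Rplp2 at 0.30. The 5S partners Rpl5 (0.36) and Rpl11 (0.20) rose, as did Rps27a (0.47), which is made as a fusion with ubiquitin. Rpsa was slightly higher (0.09 ± 0.0290, adjusted p = 0.00854), a call lost with library totals alone (adjusted p = 0.301).

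The inhibitors differed from each other in T cells in most members. With MRTX1719 46 were higher and 5 lower than with GSK3326595, against 19.3% and 19.7% of all genes, with a median of 0.10. Scaling by library totals alone gave 32 higher and 10 lower, with a median of 0.06, and leaving out single libraries gave medians of 0.080 to 0.141. Rpl41 (0.51 ± 0.0389, adjusted p = 4.79e-12) and Rpsa (0.34 ± 0.0290, adjusted p = 6.33e-18) were the farthest above. Among those lower with MRTX1719 were Rpl15 (-0.14), Rpl23a (-0.09), Rps25 and Rps27. The call for Rpl23a was lost under DESeq2 (adjusted p = 0.0824).

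Directions in T cells and MC38 cells were read side by side, since the tables were fitted apart and no test between them was made. With MRTX1719, 66 members were lower in KO MC38 cells and higher in T cells. Of the 76, 72 were lower in KO cells and 68 higher in T cells, so most had to show both calls. No member was called lower in T cells, so none could be lower in both. The share of all genes with both calls is not given here. With GSK3326595, 37 of the 50 members that rose in wild-type MC38 cells and fell in KO cells also rose in T cells. Of all 76 members, 53 rose in T cells with this compound, a similar share. Over the 76 members, Pearson's r between the responses to MRTX1719 in KO cells and in T cells was 0.04, across genes.

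**Figure D5:**
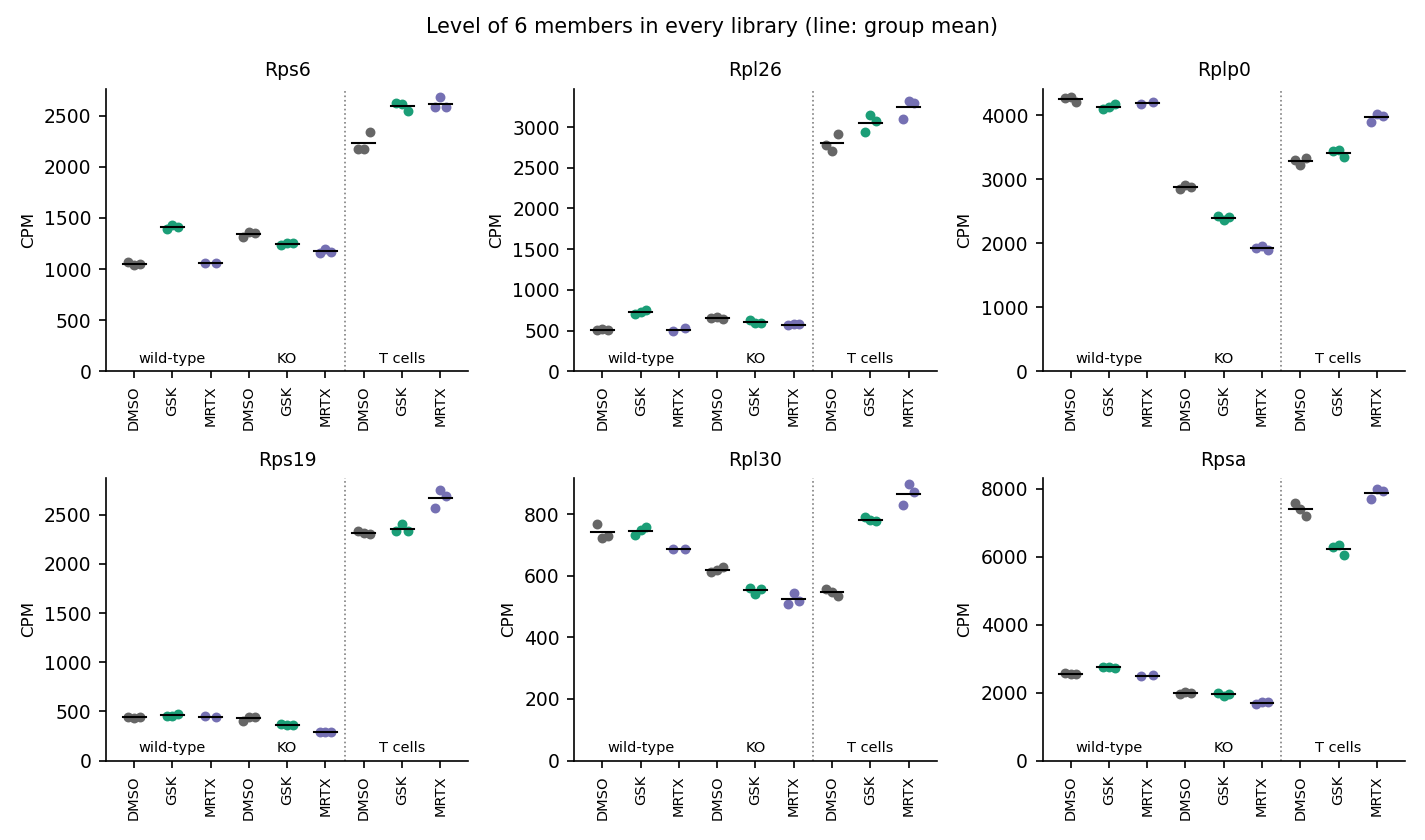
CPM of Rps6, Rpl26, Rplp0, Rps19, Rpl30 and Rpsa in every library (points) with group means (lines), MC38 cells left and T cells right of the dotted line, each axis from 0. Rps6 and Rpl26 rise with GSK3326595 in wild-type cells, Rplp0 and Rps19 fall with MRTX1719 in KO cells, and Rpl30 rises with both inhibitors in T cells.

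Medians by subunit and by sequence trait lay close together, and differences between these subsets were not tested. The 46 large-subunit members had a median of 0.16 and the 30 small-subunit members of 0.19 with GSK3326595 in wild-type cells. With MRTX1719 in KO cells the medians were -0.23 and -0.24. The 13 members with a C-led pyrimidine run at the annotated start had medians of 0.16, -0.19 and 0.27 for GSK3326595 in wild-type cells, MRTX1719 in KO cells and MRTX1719 in T cells. The 43 with a window but no such run had medians of 0.18, -0.22 and 0.25. As 26 of the 56 had a run of at least 8 near the start, this split need not part TOP from other messages. On average 48.7% of a member's 50-base stretches also occur in other annotated genes, so reads could be split between copies. The 38 members below the median of this sharing had 31 higher with GSK3326595 in wild-type cells and 37 lower with MRTX1719 in KO cells, beside 31 and 35 of the 38 above it.

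Genes of the same function outside the rule were read from lists chosen by role. Their counts stand beside a background of 20.1% of all genes higher and 21.1% lower with GSK3326595 in wild-type cells, 37% and 33.6% with MRTX1719 in KO cells, and 18.9% and 18.5% with MRTX1719 in T cells. Of 8 tested ribosomal genes outside the rule, 4 rose with GSK3326595 in wild-type cells, and 5 fell and 1 rose with MRTX1719 in KO cells. Fau and Rack1, both components of the small subunit, and Rps3a1 were at 0.32, 0.28 and 0.29 with GSK3326595 in wild-type cells and at -0.28, -0.26 and -0.21 with MRTX1719 in KO cells. Rpl22l1, the paralog of Rpl22, stood at 119, 125 and 123 CPM in KO cells with DMSO, 75.9, 79.2 and 73.1 CPM with GSK3326595 and 63.7, 63.7 and 65.4 CPM with MRTX1719. Its changes were -0.68 ± 0.0438 and -0.93 ± 0.0455 in KO cells; with GSK3326595 in wild-type cells it was not past the threshold. Rps27l, a p53-responsive paralog of Rps27, rose with GSK3326595 in wild-type cells (0.33) and in T cells (0.69 ± 0.0402). It also rose with MRTX1719 in KO cells (0.13) and in T cells (0.59). With GSK3326595 in KO cells and MRTX1719 in wild-type cells it was not past the threshold.

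A list of 18 genes held translation factors and other genes known for TOP messages. Of these, 15 rose and 2 fell with GSK3326595 in wild-type cells, and 4 rose and 10 fell with MRTX1719 in KO cells. Eef1a1, the elongation factor that brings aminoacyl-tRNA, rose by 0.31 in wild-type cells with GSK3326595, while Eif3f fell there (-0.14). In KO cells with MRTX1719 Tpt1 fell by 0.50, while Eif3l (0.46) and Eef1g (0.44) rose. With GSK3326595 in KO cells 7 of the 18 rose and 5 fell, with a median of -0.0027. The shares of all genes there were 27.7% and 25.1%. In T cells with MRTX1719, 17 of 18 rose, with Btf3, a subunit of the nascent polypeptide-associated complex, at 0.88. Of 77 mitochondrial ribosomal protein genes tested in KO cells, 42 rose and 15 fell with MRTX1719, with a median of 0.13, from -1.07 for Mrpl17 to 1.001 for Mrpl46. In T cells with MRTX1719, 46 of the 77 rose. Of 18 genes that act in or on the TOR pathway, 11 rose and 4 fell with MRTX1719 in KO cells. Tsc1, whose product restrains mTORC1, rose by 0.67, and Rps6kb2, an S6 kinase, was at -0.55. In T cells with MRTX1719, 1 of the 18 rose (Rheb, the GTPase that activates mTORC1, 0.34) and 6 fell, among them Rictor (-0.38) and Mlst8 (-0.37). Tsc1 also rose with GSK3326595 in T cells (0.36), where most members were higher. Rheb was higher with MRTX1719 than with GSK3326595 in KO cells (0.27), where most members were lower. The part of these genes in the member changes was not tested. Of 11 carriers and importins that handle ribosomal proteins, 7 rose and 0 fell with MRTX1719 in KO cells by edgeR (7 and 2 with library totals alone), with Pdcd2l at 0.57 and Ipo5 at 0.35.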

How the data were processed

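The authors deposited raw counts per gene (whole numbers, no normalization) and a normalized signal, separately for MC38 cells and T cells. Tested against each other, the authors' normalized signal is the count table after division by a size factor for each library. It served only to tie symbols to identifiers (all 15629 rows for MC38 and 15287 of 15300 rows for T cells matched a single identifier within 1e-06). The submitters' processing notes name GRCm39, DESeq 1.18.0, Bowtie2 2.1.0 and TopHat2 2.0.10. How reads were counted (program, annotation, strand) is not given in the sources used here. Near-identical copies and overlapping genes may therefore have split or lost reads. Named pseudogene rows of members held 0.111 to 0.143 counts per 100 member counts with MC38 and 0.162 to 0.183 with T cells.

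Each table's counts went into edgeR 4.0.16 under R 4.3.3, with TMM scaling, the filterByExpr filter and the robust quasi-likelihood F test, all groups of a table together and without covariates, giving 12 comparisons. The common coefficient of variation between libraries was 0.0198 for MC38 and 0.0372 for T cells. On simulated counts, the fit recovered 65% of 100 genes changed by 0.3 and 80.8% of 99 changed by 1 (log2) in the wild-type GSK3326595 comparison, with 8 false calls among 14835 genes. In T cells it recovered 51.5% and 86.7%, with 9 false calls. The changed genes were drawn at random over all levels and were few beside those called in the data. These rates therefore do not describe how well changes in the members are found. Members were named by role, and where past the threshold with groups that do not overlap, as the 3 highest and 3 lowest of a comparison. Lists of other genes were read from the same fits. Members and lists were chosen with earlier results of these data known. Alternatives were DESeq2 1.42.0, other scalings, no filter, added pseudogene counts, a replicate block, each library left out and, chosen after seeing the data, leaving out Rpl24, Rps10 and Rpl13a. Transcript overlap and shared 50-base stretches came from GENCODE vM21 (GRCm38) and start windows from RefSeq (GRCm38.p6). Members on chromosome 18 have no sequence shown, and the values of some members that the rule would name are not reported here.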

Additional observations from a re-analysis of the deposited data

Results flagged for a closer look

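The response to GSK3326595 differed between KO and wild-type cells for 70 of the 76 members by the test of that difference. The values at the ends were -0.84 for Rpl13a, -0.63 for Rpl26, -0.56 for Rpl36a and 0.19 for Rps2 (KO minus wild-type, log2). For MRTX1719 the difference passed for 60 members, with -0.59 for Rps19 and -0.56 for Rplp0.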

How the results depend on the processing

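Directions of the member medians were the same in all 12 comparisons under every alternative run. Scaling by library totals alone moved the median by more than the spread between libraries to -0.33 for the difference in GSK3326595 response, -0.14 for GSK3326595 in KO cells, -0.24 for the difference in MRTX1719 response, -0.27 for MRTX1719 in KO cells, 0.20 for MRTX1719 in T cells and -0.20 for MRTX1719 against GSK3326595 in wild-type cells. With no filter on low counts the difference in MRTX1719 response had a median of -0.23. Leaving out each library in turn gave medians of 0.054 to 0.076 for KO against wild-type, -0.053 to -0.029 for MRTX1719 in wild-type cells and -0.23 to -0.20 for MRTX1719 against GSK3326595 there, and 8 to 17 members changed with MRTX1719 in wild-type cells. Of the counts for lists of other genes, 19 moved by over 1.5 times and 101 did not with library totals alone, and with RLE size factors 2 did, those of TOR genes higher with MRTX1719 in T cells (2, against 1) and of other ribosomal genes higher with MRTX1719 in KO cells (2, against 1). The cause of these shifts was not tested. Among values near 0 and not past the threshold, Rpl8 with MRTX1719 in KO cells was -0.033 with library totals alone, -0.025 with no filter and -0.020 to 0.023 without single libraries, and Rps2 there was -0.00616 with library totals alone. Leaving out libraries, Rplp1 with GSK3326595 in wild-type cells ran from -0.020 to 0.033 and Rps10 with MRTX1719 in KO cells from -0.49 to 0.066. Without Rpl24, Rps10 and Rpl13a, 61 of 73 members were higher with GSK3326595 in wild-type cells and 70 lower with MRTX1719 in KO cells. Leaving out 3 members of the same fit can lower a count by 3 at most, so counts as large as these could not move by 1.5 times. Same-numbered replicates did not deviate together (correlations of -0.06 to 0.04 over 40 pairs in MC38 cells and -0.03 to 0.04 over 9 pairs in T cells), and the fit with the replicate number as a block gave 64 members changed with GSK3326595 in wild-type cells, 71 with MRTX1719 in KO cells and 43 for the inhibitors against each other in T cells, against 64, 72 and 51. Rpl24 and Rps10 had few counts per library, so that changes in them were mostly not detectable.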
